A study of Mus musculus with 18 samples.

Results

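The 35 genes described here encode proteins of the presynaptic terminal, namely synaptic vesicle proteins, the SNAREs and their recycling factors, scaffolds of the active zone and proteins of vesicle endocytosis. They were chosen by symbol from knowledge of the synapse and not by a measured value, though earlier results of these data were known. All 35 matched 1 row each among the 54547 gene rows of the deposited count tables, by Ensembl identifier with its version dropped.

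The tissue was medial prefrontal cortex, dissected from C57BL6/J mice at postnatal day 100, and its total RNA went into 18 libraries enriched for transcript 3' ends. Of these, 9 came from animals on a control diet and 9 from animals whose chow held PLX5622 at 1200 mg/kg, an inhibitor of the receptor CSF1R that depletes microglia. The labels of all 18 samples carry the same treatment text, with 21 days of PLX5622, then 44 days of access to 15% ethanol on alternate days, and collection 24 hours after the last ethanol. That text therefore does not tell the diets apart, no group without ethanol is described, and every count table carries the letters Sal in its name, which no label explains. What a control animal received beyond its chow is therefore not known here. Each library comes from a numbered animal, and neither cage nor litter is stated.

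Chemical synapses release transmitter when vesicles docked at the active zone fuse with the membrane. Vamp2 on the vesicle zippers with Stx1a and Snap25 on the plasma membrane, synaptotagmins sense calcium, and Nsf with its adaptors takes the spent SNARE complex apart. Clathrin adaptors, endophilin, synaptojanin and dynamin then retrieve the vesicle membrane. Microglia survey synapses and can engulf them, and the genes listed here are expressed mainly by neurons. A transcript level in whole tissue measures neither the number of synapses nor transmitter release, and fewer cells of a type cannot be told apart from less RNA per cell.

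The libraries held 990136 to 1742680 counts. The 12 microglial markers were lower with PLX5622, all 12 passing the test described below, and their summed level ran from 411 to 578 CPM (counts scaled to a common library total) in controls and from 109 to 195 CPM with PLX5622. Neuronal markers were present throughout. Their sum ran from 4240 to 4650 CPM in controls and from 4190 to 4610 CPM with PLX5622, with Tubb3 at 0 counts in every library and none of the 9 tested markers called. Markers of GABAergic neurons summed to 1000 to 1140 CPM and 996 to 1140 CPM, with none of 10 called, and those of striatal neurons to 414 to 524 CPM and 394 to 498 CPM, with none of 5 tested called. Glutamatergic cortical markers summed to 3070 to 3390 CPM and 2980 to 3390 CPM, 5 being higher with PLX5622 and 4 lower. Astrocyte markers summed to 3390 to 3810 CPM and 3440 to 3860 CPM, with 6 higher and 1 lower. Oligodendrocyte markers summed to 1330 to 2000 CPM and 1140 to 2320 CPM, with 5 higher and 3 lower. No marker of these last lists was called.

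None of the presynaptic genes was called between the diets. Of the 35, 32 passed the count filter of the main test, and 0 of these had an adjusted p under 0.05 in edgeR's quasi-likelihood test, against 0.398% of all 11051 tested genes. At an unadjusted p under 0.05 there were 3, Dnm1, Syn2 and Syngr3, which is 9.38% of the 32 against 6.79% of all tested genes. DESeq2 (33 members with an adjusted p, Doc2b among them) and limma-voom also called 0, each with 2 at an unadjusted p under 0.05. The signs were evenly divided, with 16 members above 0 and 16 below, and the median log2 fold change of PLX5622 over control was -0.001, against 0 over all tested genes. No member had libraries of the 2 diets that did not overlap, which 0.199% of all tested genes had.

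The libraries were precise enough to bound these differences. For 31 of the 32 tested genes the 95% interval of the fold change lay between 0.86-fold, the lower bound of Unc13a, and 1.19-fold, the upper bound of Vamp1. The exception was Syt2, a synaptotagmin of fast-spiking and other rapidly firing neurons, with a mean of 24.4 counts per library and an interval from 0.65 to 1.26-fold. Mean counts of the tested members ran up to 4201.8 per library, with a median of 584.8. The coefficient of variation among control libraries had a median of 7.4% over these genes and a range from 3.6% to 41.2%. With PLX5622 the median was 5.605%, from 2.85% to 32.4%. Counting alone would give 1.54% for the most deeply counted member, Syt1, and 20.2% for Syt2.

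**Figure D1:**
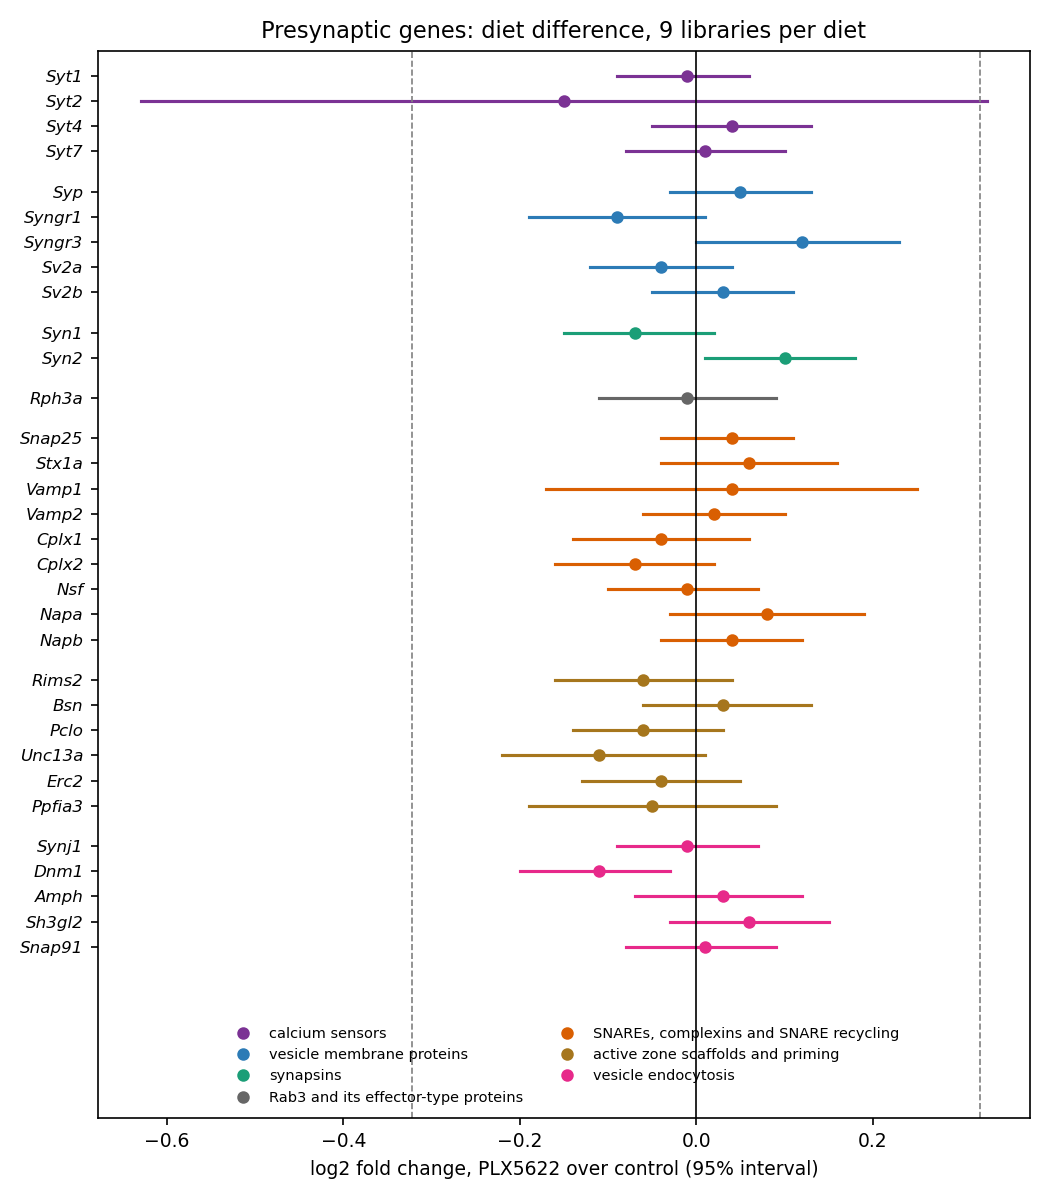
Log2 fold change of each tested presynaptic gene, PLX5622 over control, with its 95% interval from edgeR's quasi-likelihood fit (9 libraries per diet), grouped and coloured by role. Dashed lines mark a preset log2 size of 0.32 in either direction, and every interval but that of Syt2 (0.65 to 1.26-fold) lies between them.

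Among the synaptotagmins, Syt1, Syt4 and Syt7 stood near 0, and the sparsely counted Syt2 was at -0.15 ± 0.23 (log2, SE, edgeR adjusted p = 0.963). Syt1, the sensor for fast synchronous release in forebrain neurons, had 2820, 3070 and 3470 CPM as lowest, median and highest control library. With PLX5622 these were 2840, 3060 and 3260 CPM. Its log2 fold change was -0.01 ± 0.04 (SE, edgeR adjusted p = 0.988). Syt2 ran from 9.35 CPM in control 2 to 32.4 CPM in control 3, and from 7.79 to 25.4 CPM with PLX5622, so that the libraries within a diet differed by more than the diets did. The 2 means were 18.8 ± 7.7 and 16.5 ± 5.4 CPM (SD, n = 9 each). Syt4, a synaptotagmin that neuronal activity induces, was at 0.04 ± 0.05 (log2, SE), with 396 CPM (SD 31.9) on the control diet and 407 CPM (SD 14.8) on PLX5622, 9 libraries each. A gene model on the other strand lies over 73.85% of its span, and the strand setting of the counting is not given in the sources used here. Syt7, a high-affinity sensor tied to asynchronous release and vesicle resupply, was at 0.01 ± 0.04.

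Among the integral proteins of the vesicle membrane, Syngr3 and Syngr1 differed in sign and neither passed the test. Both are synaptogyrins, membrane proteins related to synaptophysin. Syngr3 (chromosome 17, 24685092 to 24689955 in GRCm38) had 134, 161 and 190 CPM as lowest, median and highest control and 143, 177 and 191 CPM with PLX5622. Of the 9 PLX5622 libraries 8 lay above the control median and 1 above the highest control. Its log2 fold change was 0.12 ± 0.06 (SE, unadjusted p = 0.046, edgeR adjusted p = 0.726). Syngr1 had 278, 301 and 347 CPM in controls and 256, 284 and 329 CPM with PLX5622, at -0.09 ± 0.05 (adjusted p = 0.772). As a ratio of counts within a library, Syngr1 over Syngr3 averaged 1.99 (SD 0.291) over the controls, from 1.58 to 2.37, and 1.70 (SD 0.112) over the PLX5622 libraries, which reached 1.84 and so overlapped the controls. This pair was singled out after its values were seen and its ratio was not tested. Synaptophysin, Syp, long used as a marker of synaptic vesicles, was at 0.05 ± 0.04, with 664 to 875 CPM in controls and 724 to 870 CPM with PLX5622. The vesicle glycoproteins Sv2a, the binding site of the drug levetiracetam, and Sv2b were at -0.04 ± 0.04 and 0.03 ± 0.04.

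The synapsins, phosphoproteins that tether vesicles in the reserve pool, also stood on opposite sides of 0. Syn2 had 703, 805 and 935 CPM as lowest, median and highest control, and 795, 876 and 923 CPM with PLX5622. Here 8 of 9 PLX5622 libraries exceeded the control median and none exceeded the highest control, control 10. The log2 fold change was 0.10 ± 0.04 (SE, unadjusted p = 0.026, edgeR adjusted p = 0.629). Another gene model on the same strand covers 21.72% of the span of Syn2. Syn1 had 413, 434 and 461 CPM in controls and 388, 414 and 440 CPM with PLX5622, with 4 PLX5622 libraries below the lowest control. It was at -0.07 ± 0.04 (adjusted p = 0.830). The ratio of Syn1 to Syn2 counts averaged 0.537 (SD 0.0458) over the controls and 0.478 (SD 0.0349) over the PLX5622 libraries, from 0.482 to 0.618 and from 0.446 to 0.544. This ratio too was looked at after the values were seen and carries no test. Other pairs were also compared. Napb over Napa averaged 4.05 in controls and 3.93 with PLX5622, and Sv2a over Sv2b 1.13 and 1.08. Bsn over Pclo averaged 0.556 and 0.595, and Syt1 over Syt2 192 and 209, none of them tested.

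The SNARE genes, whose products drive fusion, had values of 0.02 to 0.06 (log2), none called. Snap25 had 1870, 2010 and 2100 CPM as lowest, median and highest control and 1900, 2060 and 2220 CPM with PLX5622, and 3 PLX5622 libraries lay above the highest control. Its fold change lay between 0.97 and 1.08 (95% interval). Vamp2, the main vesicle SNARE of the forebrain, had 773 to 922 CPM in controls and 820 to 913 CPM with PLX5622, with an interval of 0.96 to 1.07-fold. Stx1a, the plasma membrane syntaxin, was at 0.06 ± 0.05 (log2, SE). Vamp1, which serves in place of Vamp2 in many fast-spiking interneurons and in caudal brain regions, had 54.6 to 99.4 CPM and 64.1 to 103 CPM, at 0.04 ± 0.10, and 40.5% of its span lies under gene models on the other strand. The ratio of Vamp2 to Vamp1 counts was 11.4 in both diets, with SD of 2.09 in controls and 1.96 with PLX5622.

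The complexins, which clamp and then assist the assembled SNARE complex, were both slightly below 0. Cplx2, the form of excitatory forebrain neurons, had 462, 534 and 584 CPM as lowest, median and highest control and 473, 514 and 550 CPM with PLX5622. In that gene 8 of 9 PLX5622 libraries were below or at the control median, and the log2 fold change was -0.07 ± 0.04 (SE, edgeR adjusted p = 0.830). Cplx1, prominent in inhibitory neurons, was at -0.04 ± 0.05, from 315 to 430 CPM in controls and 303 to 391 CPM with PLX5622. The ratio of Cplx2 to Cplx1 counts lay between 1.35 and 1.56 in controls and between 1.31 and 1.59 with PLX5622. Nsf, the ATPase that disassembles SNARE complexes, was at -0.01 ± 0.04, and its adaptors Napa (alpha-SNAP) and Napb (beta-SNAP) were at 0.08 ± 0.05 and 0.04 ± 0.04.

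Among active zone genes, 5 of the 6 tested had negative values, none of them called, with a median of -0.053 (log2). Over all tested genes 5523 of 11051 were negative. Among other active zone genes, outside the members, 13 of 21 were negative, with a median of -0.012. Unc13a, the Munc13 protein that primes vesicles for fusion, had 137, 163 and 185 CPM as lowest, median and highest control and 143, 152 and 166 CPM with PLX5622. All PLX5622 libraries lay within the control range and 2 were above the control median. The log2 fold change was -0.11 ± 0.06 (SE, unadjusted p = 0.066, edgeR adjusted p = 0.772). Rims2, Pclo, Erc2 and Ppfia3 were at -0.06, -0.06, -0.04 and -0.05, with adjusted p of 0.907, 0.885, 0.952 and 0.959. Rims2 is a Rab3 effector that recruits calcium channels, Pclo (piccolo) a giant scaffold, Erc2 (CAST) a binding partner of both and Ppfia3 a liprin-alpha. Bsn, the scaffold bassoon, was at 0.03 ± 0.05, with 279 to 377 CPM in controls and 287 to 355 CPM with PLX5622.

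Among the endocytosis genes was Dnm1, which had the smallest p of all members. Dynamin 1, its product, is the neuronal GTPase that pinches vesicles from the membrane. Dnm1 (chromosome 2, 32308471 to 32353338 in GRCm38) had 429, 484 and 528 CPM as lowest, median and highest control and 415, 450 and 478 CPM with PLX5622. All 9 PLX5622 libraries lay below the control median and 3 below the lowest control, control 10. The means were 485 ± 33 and 447 ± 25 CPM (SD, n = 9 each), a log2 difference of -0.11 ± 0.04 (SE, 95% interval 0.87 to 0.98-fold, unadjusted p = 0.011). The adjusted p was 0.514 in edgeR, 0.726 in DESeq2 and 0.551 in limma-voom. Synj1, the phosphatase synaptojanin 1, was at -0.01 ± 0.04, Amph (amphiphysin) at 0.03 ± 0.05, and the clathrin adaptor Snap91 (AP180) at 0.01 ± 0.04. Sh3gl2, endophilin A1, was at 0.06 ± 0.04, and 6 of 9 PLX5622 libraries exceeded the highest control of 350 CPM while PLX5622 29 was at 301 CPM. Adamtsl1 covers 28.8% of the span of Sh3gl2 on the same strand.

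**Figure D2:**
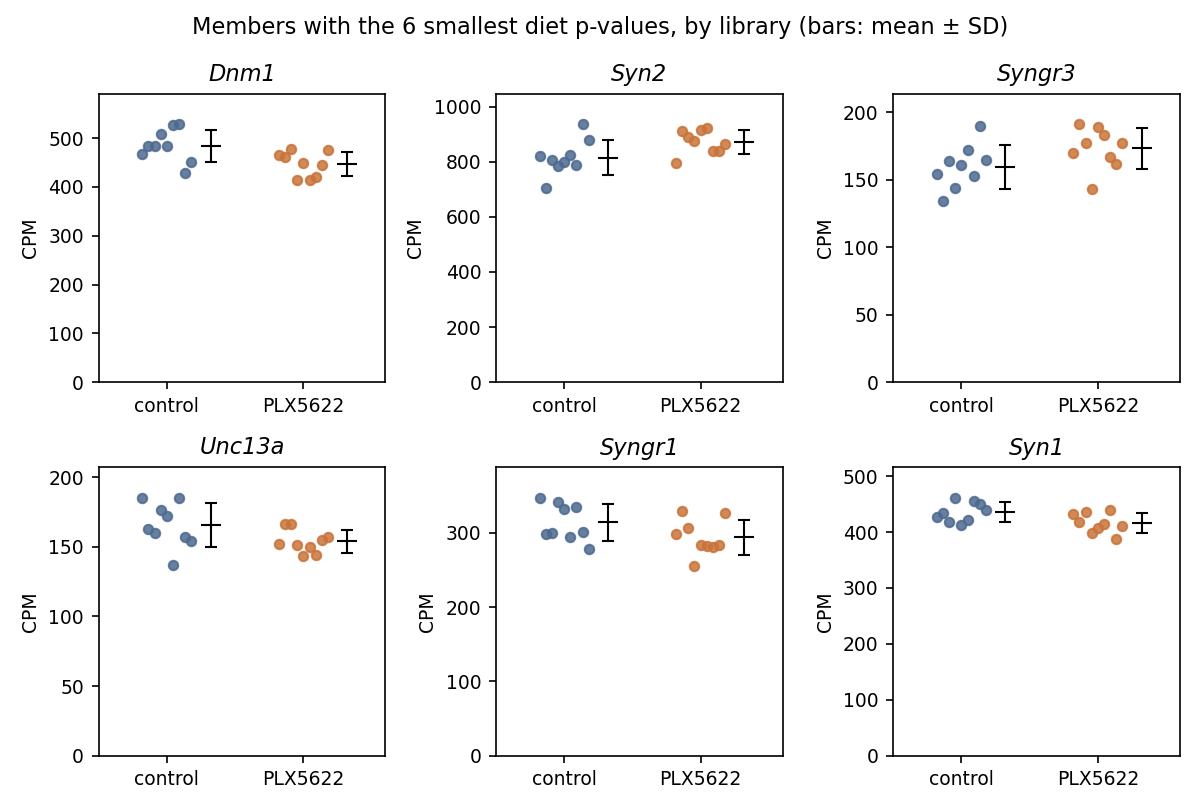
CPM in each library (points; 9 control and 9 PLX5622) with the mean ± SD beside them, for the 6 presynaptic genes with the smallest p between diets. The diets overlap in every panel, and Dnm1 has all PLX5622 libraries below the control median of 484 CPM.

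The other 3 members, Rab3a, Rims1 and Doc2b, did not pass the count filter. Rab3a, the small GTPase of the vesicle surface, had 0 counts in all 18 libraries. It lies on chromosome 8 from 70754679 to 70758677 within a run of 16 genes without a single count, from Lsm4 to Arrdc2 (70673248 to 70839720 in GRCm38). The run holds 11 protein-coding genes, 7 on the plus and 4 on the minus strand, among them Jund. No other gene model of GENCODE M21 covers Rab3a on its strand. On the other strand Mpv17l2, a gene of the same run, covers 0.73% of Rab3a. Since its neighbours on both strands are at 0 as well, these counts give no level for Rab3a, and the cause was not tested. Rims1, a gene related to Rims2, has no other model on its strand either. It had 1 count in the controls and 2 with PLX5622, against 4796 and 4803 counts for Rims2. A count this low does not show that Rims1 was silent. Without a count filter edgeR gave Rims1 an adjusted p of 0.904, and its fold change on 3 counts in all is not given. Doc2b, a calcium sensor of spontaneous release, had 95 and 85 counts, at 7.96 ± 2.13 and 6.83 ± 2.54 CPM (SD, n = 9 each), with 3.07 to 11.5 CPM in PLX5622 libraries against 4.46 to 10.3 CPM in controls. Its log2 fold change was -0.22 in edgeR without a count filter (adjusted p = 0.801) and -0.22 in DESeq2 (adjusted p = 0.999). Rph3a (rabphilin), a Rab3 effector, was tested and stood at -0.01 ± 0.05.

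Other presynaptic genes, outside the 35, were not called either. Of 117 such genes 110 were tested and 0 were called, 5 had an unadjusted p under 0.05 (4.55%), 55 were positive and 55 negative, and the median log2 fold change was 0.001. Among those not tested, Syngr2, Atp6v0c, Atp6v1c1 and Prrt2 had 0 counts in every library. On the same strand Gm20708 covers 100% of the span of Syngr2 and Gm42742 covers 96.9% of that of Prrt2. No other model covers Atp6v0c or Atp6v1c1 on its strand. The 0 counts give no level for any of these genes, and the cause was not tested. Among 26 tested vesicle proteins and transporters, Slc32a1, the vesicular GABA transporter, had the smallest p, at -0.16 ± 0.09 (SE, edgeR adjusted p = 0.766). The 14 proton pump subunits ranged from -0.09 to 0.07, the former being Atp6ap1. In the fusion list (17 tested) the SNARE Snap29 was at 0.27 ± 0.12 (adjusted p = 0.684), from 21.4 ± 2.5 to 26.0 ± 4.1 CPM (SD, n = 9 each). In the active zone list (21 tested) Unc13c was at 0.20 ± 0.09, Apba2 (Mint2) at -0.11 ± 0.05 and the liprin Ppfia4 at -0.25 ± 0.11, with adjusted p of 0.617, 0.631 and 0.662. Ppfia4 was named after its values were seen. Of 32 endocytosis genes, Bin1 (amphiphysin 2), which oligodendrocytes and microglia also express, was at -0.13 ± 0.05 (adjusted p = 0.532).

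The level of the members as a whole was then followed from animal to animal. The mean deviation of the 32 tested genes from their own 18-library means, on the log2 CPM scale with a prior count of 2, averaged 0.003 (SD 0.033) over the 9 controls and -0.003 (SD 0.044) over the 9 PLX5622 libraries. By this mean the lowest library was PLX5622 28, at -0.089, which is also the library with the fewest counts, and the highest was control 9, at 0.072. By the median over the genes PLX5622 28 was again lowest, at -0.068. The highest were then PLX5622 25 and PLX5622 26, each at 0.036, with control 9 at 0.033. The 35 genes held 1.748% ± 0.036 of all counts in controls and 1.753% ± 0.035 with PLX5622. On the scale of mean deviations microglial markers stood at 0.828 ± 0.101 and -0.828 ± 0.224. Immediate-early genes, which neurons switch on with activity, stood at -0.281 ± 0.289 and 0.281 ± 0.349.

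**Figure D3:**
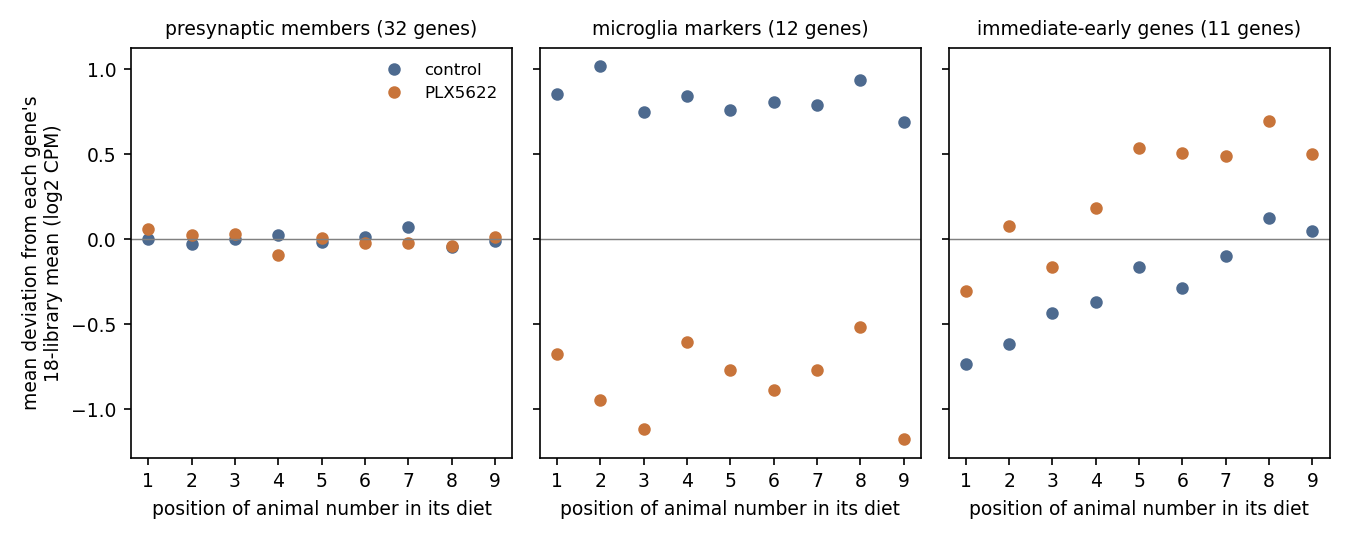
Mean deviation of 3 gene lists from each gene's 18-library mean (log2 CPM), 1 point per library, against the rank of the animal's number among the 9 of its diet. The presynaptic genes stay between -0.089 and 0.072, while microglial markers separate the diets and immediate-early genes climb along the positions in both.

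The order of the animal numbers was examined because immediate-early genes followed it in both diets, 7 of 11 being called in a fit with diet and position (1 to 9) as terms. Of the 32 presynaptic genes 0 were called for position, against 0.308% of all tested genes, and limma-voom also called 0. At an unadjusted p under 0.05 there were 5, Rims2, Pclo, Cplx2, Ppfia3 and Syp, which is 15.6% of the 32 against 9.27% of all tested genes. The first 4 had negative slopes and Syp a positive one. Rims2 differed by -0.024 ± 0.009 per position (log2, SE, unadjusted p = 0.008, edgeR adjusted p = 0.318), from 421 CPM in control 2 to 343 CPM in control 10, but 445 CPM in control 11. With PLX5622 it was 433 and 437 CPM at the first positions (animals 25 and 26) and 340 to 402 CPM in the other 7 libraries. Pclo, at -0.021 ± 0.008 (adjusted p = 0.340), had 621 and 619 CPM in the same 2 libraries and 507 to 572 CPM in the rest. Cplx2 and Ppfia3 were at -0.019 ± 0.008 and -0.029 ± 0.013 per position (adjusted p = 0.466 and 0.476), and Syp at 0.017 ± 0.008 (adjusted p = 0.513). Without control 11 the smallest adjusted p of a member for position was 0.0594 in place of 0.318, still uncalled. Since the numbers of the diets do not overlap, any session tied to them and the diet cannot be told apart.

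**Figure D4:**
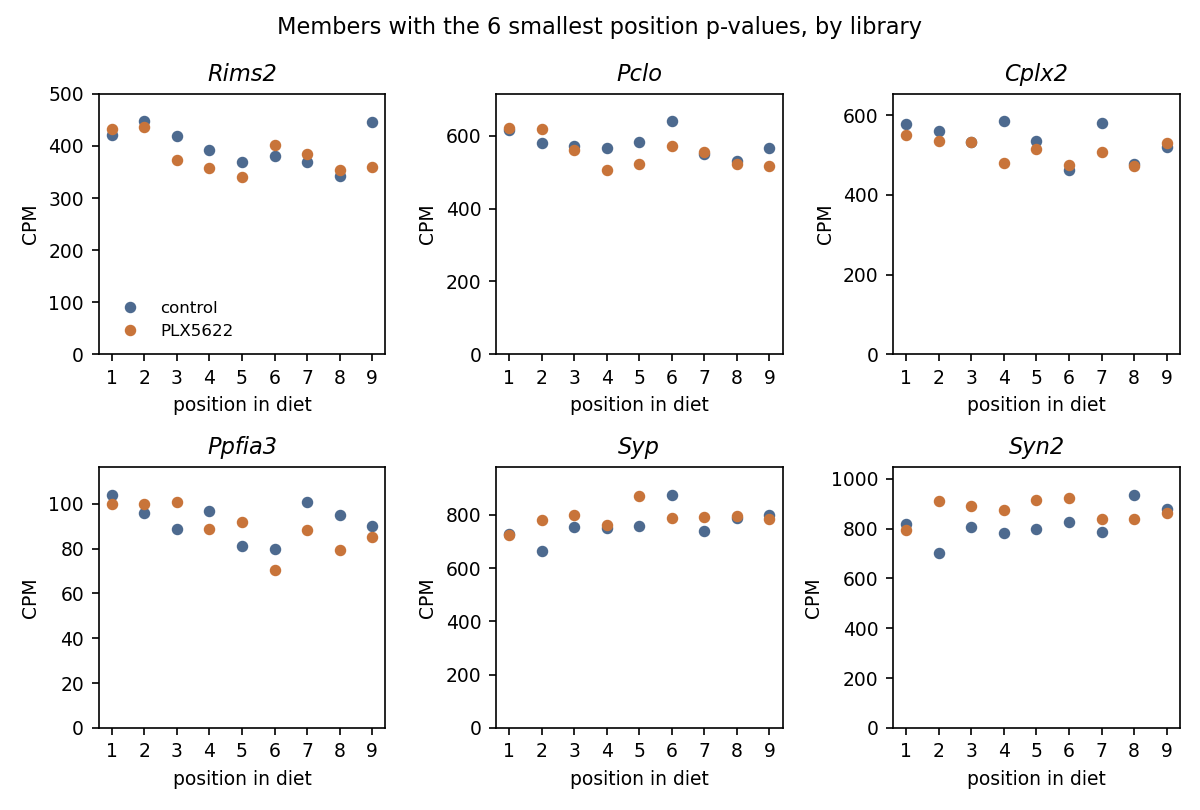
CPM by library against the rank of the animal's number among the 9 of its diet, for the 6 presynaptic genes with the smallest p for position. Rims2 and Pclo are highest at the early positions of both diets, apart from control 11 in Rims2 and control 8 in Pclo, and neither passed the test.

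All 11 tested immediate-early genes had positive log2 fold changes with PLX5622, and 2 were called higher, against 5 of all 11051 tested genes. Promoter windows were therefore searched for the full cyclic AMP response element, TGACGTCA, which reads the same on both strands and binds CREB. RefSeq windows on GRCm38.p6, from 250 bases before to 50 after a start site, were present for 28 of the 35 members. The element was in 3 of them (10.7%), against 2.03% of 27025 genes with a window and 1.79% of 32851 windows. A gene was counted if any of its windows held the element, and the 27025 genes were not limited to expressed ones. The share among members rests on 3 genes, and the difference was not tested. It was in 2 of 9 immediate-early genes with a window. The stretches that hold it are shown 5' to 3' on the gene's strand, with the element in capitals.
Napa: gcaggcctgggTGACGTCAacgcagcgggc
Sh3gl2: atcacccgcccTGACGTCAgggtgtctctc
Syn1: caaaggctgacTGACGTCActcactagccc
These lie at chr7:16098562-16098591 (plus strand), chr4:85205408-85205437 (plus) and chrX:20921059-20921088 (minus), with the element beginning 7, 37 and 159 bases before the RefSeq start site. None of the 3 genes was called. Napa and Sh3gl2 were at 0.08 ± 0.05 and 0.06 ± 0.04 (log2, SE) between diets and Syn1 at -0.07 ± 0.04, and per position they were at -0.003, -0.005 and -0.001. A match in these windows is a description of the letters and does not show that a factor was bound.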

How the data were processed

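The authors deposited whole-number counts per gene, 1 table per library. Tools listed in the submitters' processing notes are HTSeq 0.11.0, Bowtie2 2.3.4.3, DESeq2 1.10.1, FastQC 0.11.8 and R 3.5.1, with builds GRCm38.p6 and mm10. The role of a tool, the strand setting, the counted feature and the annotation release were each not given in the sources used here. Identifiers were matched to GENCODE M21 without version (53620 matched, and the 927 others held 0.047% of counts). The 35 members and all lists were chosen with earlier results of these data known. All 18 libraries entered 1 fit in edgeR 4.0.16 (R 4.3.3). It used TMM factors, the default filterByExpr thresholds (10 counts, 15 in total), robust quasi-likelihood dispersions and p-values adjusted over all tested genes by Benjamini-Hochberg. Alternatives were DESeq2 1.42.0, limma-voom (limma 3.58.1), other scalings and filters, thinning, a position covariate and leaving out each library. The count of intervals under these alternatives was chosen after seeing the data. Simulated counts were used to test the scripts. Every member is named, with library values for those with the smallest p by diet or position and for preset pairs, and the smallest p in each related list chose its named genes. Animals are numbered separately, but cages and litters are not stated. The p-values treat the 18 libraries as independent, which shared cages or litters could undo.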

Additional observations from a re-analysis of the deposited data

Results flagged for a closer look

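In 66 sets of 9 libraries (33 members with counts enough to look at, in each diet), 3 held a library set apart from the other 8 by Dixon's criterion, which chance alone meets in about 1 of 20 sets. Syt4 was at 320 CPM in control 3, the next lowest control being at 380 CPM. Syt7 was at 494 CPM in PLX5622 29, the next highest being at 448 CPM. Sh3gl2 was at 301 CPM in the same library, the next lowest being at 338 CPM.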

How the results depend on the processing

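No member and no related gene was called between diets under any of the 26 alternatives, and no member for position under the 21 run for it. The smallest adjusted p of a member was 0.242, for Dnm1 without control 10. The median log2 fold change of the members stayed between -0.014 and 0.013, and in each of the 24 edgeR alternatives 31 members had intervals within 0.32 of 0 (log2). Over all genes, 44 were called, against 72 with DESeq2, 112 without a count filter and 8 at a mean of at least 50 counts. Members near 0 changed sign, none of them called. With thinned libraries Rph3a was at 0.00 and Nsf at 0.03. Leaving out 1 library gave -0.03 to 0.01 for Syt1, -0.02 to 0.03 for Syt7, -0.03 to 0.01 for Rph3a, -0.03 to 0.10 for Vamp1, -0.03 to 0.01 for Nsf, -0.02 to 0.00 for Synj1 and -0.01 to 0.02 for Snap91. The cause was not tested. No paired analysis was possible because the diets share no animal numbers. Few counts limit the precision for Syt2 (24.4 per library on average) and Doc2b (10.0). Doc2b passed the count filter in 14 of the fits without 1 library, at -0.34 to -0.11, uncalled in each.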
